A study of Homo sapiens with 15 samples.

Results

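The genes described here are the axon guidance ligands and receptors of human 143B osteosarcoma cells, namely the semaphorins, plexins, neuropilins, netrins, the netrin receptors, SLITs and ROBOs. They were chosen by a rule on symbols that uses no measured value, but with earlier results of these data known. The rule takes protein-coding genes of both deposited tables that carry one of these family names, together with the netrin receptors DCC and NEO1. The rule does not take in every gene with such a name. This gave 47 genes of 20046 protein-coding genes and 62700 genes in all. By role they comprised 7 secreted semaphorins, 12 membrane-bound semaphorins, 9 plexins, 2 neuropilins, 4 netrins, 6 netrin receptors, 3 SLITs and 4 ROBOs.

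The study asked how PDK1, the pyruvate dehydrogenase kinase that sets the balance of glycolysis and oxidative metabolism, acts in osteosarcoma stem cells (OSCs). It used several cell lines, patient data and mouse models. The 15 RNA-seq libraries described here were all made from 143B, 1 established human osteosarcoma line. OSCs were grown as spheres in a medium listed with EGF and basic FGF but no serum, and non-OSCs as an adherent layer in medium with serum, with 3 libraries each, so attachment, serum and growth factors all differ between these groups. Of the other 9 libraries, all from spheres, 3 carried the control hairpin shCtrl, 3 the hairpin labelled shPDK1_1 and 3 the one labelled shPDK1_2 (here shPDK1#1 and shPDK1#2), each delivered by lentivirus against the wild-type background that the labels give for all samples. The OSC and non-OSC libraries hold no hairpin and come in a separate table, so levels were tested only within a table. The labels do not say that the replicates were separate cultures, so the p-values measure the spread between these libraries, which may be technical.

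Guidance ligands act through a small set of receptors. Secreted semaphorins bind a neuropilin, which holds no signaling domain of its own and passes the signal to a plexin, whereas most membrane-bound semaphorins bind plexins directly; plexins then act on small GTPases and the cytoskeleton. Netrins attract through DCC and repel through UNC5 receptors, SLITs repel through ROBO receptors, and the same proteins steer endothelial, immune, bone and tumor cells outside the nervous system.

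Totals per library lay between 7992499 and 10495051 counts in the OSC and non-OSC table and between 8073055 and 11256536 in the hairpin table. PDK1, the target of the hairpins, stood at 70.3 ± 3.03 CPM (CPM are counts scaled to a common, TMM-normalized library size; mean ± SD, n = 3) in OSCs and 46.6 ± 4.47 CPM in non-OSCs, and at 62% of shCtrl with shPDK1#1 and 43.7% with shPDK1#2. The line's label as osteosarcoma was checked against 9 mesenchymal and bone markers. VIM, COL1A1 and SPARC held at least 3739 counts in every library and RUNX2 at least 128, whereas the bone markers COL1A2, SP7, IBSP, BGLAP and ALPL stayed between 0 and 28 counts. Of the 10 hematopoietic, endothelial, epithelial and glial markers, CDH5 had 0 counts in all libraries, CDH1 and CD3D at most 1, PTPRC at most 2, MBP at most 3, and VWF and GFAP at most 4. The other 3 had more. The epithelial marker EPCAM had 8 to 44 counts over all libraries (24 to 44 in non-OSCs, 19 to 28 in OSCs, 8 to 34 with shCtrl, 14 to 35 with shPDK1#1 and 35 to 44 with shPDK1#2), the monocyte marker CD14 had 18 to 23 in non-OSCs, 1 to 5 in OSCs and 5 to 12 in the hairpin libraries, and the endothelial marker PECAM1 had 4 to 5 in non-OSCs, 8 to 15 in OSCs and 0 to 11 in the hairpin libraries. Summed, the hematopoietic markers stood at 1.74 to 2.52 CPM in non-OSCs and 0.121 to 0.616 CPM in OSCs, the endothelial ones at 0.547 to 0.881 and 1.01 to 1.85 CPM, the epithelial ones at 2.64 to 4.24 and 2.30 to 3.45 CPM, and the glial ones at 0.11 to 0.386 and 0.362 to 0.607 CPM. In the hairpin table the epithelial sum was 0.994 to 3.73 CPM with shCtrl, 1.74 to 3.13 CPM with shPDK1#1 and 3.54 to 4.45 CPM with shPDK1#2, and the hematopoietic, endothelial and glial sums were each at most 1.49 CPM. The part of these markers in any result was not tested. The 3 neuronal markers STMN2, RBFOX3 and SNAP25 summed to 9.06 to 11.9 CPM in OSCs and 3.76 to 4.82 CPM in non-OSCs, with STMN2 at 31 to 59 counts against 0 to 2, and their part in the higher guidance genes of OSCs was not tested. In the hairpin table they summed to 6.32 to 6.69 CPM with shCtrl, 5.81 to 6.80 CPM with shPDK1#1 and 7.69 to 10.2 CPM with shPDK1#2, and their part there was not tested either. In bulk RNA, fewer cells of a type and less RNA per cell cannot be told apart.

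Of the 47 genes, 40 passed the filter on low counts in each table. The 7 others were the secreted semaphorins SEMA3E (0 to 5 counts per library) and SEMA3G (0 to 4), the membrane-bound semaphorins SEMA4A (0 to 8) and SEMA5B (0 to 8), the netrins NTN3 (0 to 2) and NTN5 (0 to 5), and SLIT1 (2 to 16). A value near 0 at these totals does not show that a gene is silent.

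Levels between genes were compared as CPM per kb of exon. The length used was the union of all annotated exons of a gene, which may differ from the transcripts present. The SD between libraries does not cover this, so the order of genes is approximate. The glycosylphosphatidylinositol-anchored semaphorin SEMA7A led in OSCs at 43.6 ± 1.04 CPM per kb (SD, n = 3), followed by PLXNB2 at 42.1 ± 2.54, and these neighbors overlapped within their spread. Next came PLXNA1 at 30 ± 1.46, the co-receptors NRP1 at 26.6 ± 0.549 and NRP2 at 17.1 ± 0.420, then NEO1 at 13.2 ± 0.298 and PLXNA3 at 13.1 ± 0.898, which again lay within each other's spread. SEMA3A, at 11.5 ± 0.591 CPM per kb, was the most abundant secreted semaphorin in OSCs. In non-OSCs SEMA7A led as well, at 43 ± 1.13 CPM per kb, and the next 4 genes lay close together, from PLXNA1 at 20.2 ± 2.0 through PLXNB2 at 18.7 ± 1.98 and NRP1 at 18.7 ± 0.896 to PLXNA2 at 18.6 ± 0.553. PLXNA2 held only 4.09 ± 0.299 CPM per kb in OSCs. In the hairpin table PLXNB2 led with shCtrl at 37.1 ± 0.935 CPM per kb, and SEMA7A at 29.2 ± 0.688, NRP1 at 28.7 ± 1.51 and PLXNA1 at 27.8 ± 0.357 came next, of which SEMA7A and NRP1 lay within each other's spread. With shPDK1#2, PLXNB2 still led at 30.7 ± 1.05 CPM per kb, and SEMA7A, at 14.1 ± 0.246, stood behind NRP1 at 27 ± 0.264 and PLXNA1 at 25.3 ± 0.825 and within the spread of SEMA3A at 14.9 ± 1.57.

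Sphere culture was compared with adherent culture to see which guidance genes differ between OSCs and non-OSCs. Of the 40 genes tested, 28 were higher and 6 lower in OSCs at an adjusted p under 0.05 (edgeR's quasi-likelihood test, Benjamini-Hochberg adjustment over all 14287 genes tested), which is 85% of them. Over all genes tested 63.9% passed, 32.4% higher and 31.5% lower, so calls were common in this comparison and those among the guidance genes were mostly in the direction of OSCs. Their median log2 fold change was 0.58, against -0.0053 over all genes. The largest rises were in the netrin receptors UNC5C and UNC5B, the plexins PLXNB3 and PLXNB1 and the semaphorins SEMA6A and SEMA3A. The largest falls were in PLXNA2, SLIT2 and SEMA4D. UNC5C (2 to 8 counts in non-OSCs), ROBO2, SEMA3B, SEMA3C and SEMA6D could pass the filter on low counts only through OSCs, where they were higher. SEMA3F could pass it only through non-OSCs, where it was higher. Their calls are included in the counts above and are description only. In what follows, the values of replicates 1, 2 and 3 are given in that order, and the standard error is that of the log2 fold change. Groups said to be apart or not to overlap are described only, as the share of all genes without overlap is not given here.

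**Figure D1:**
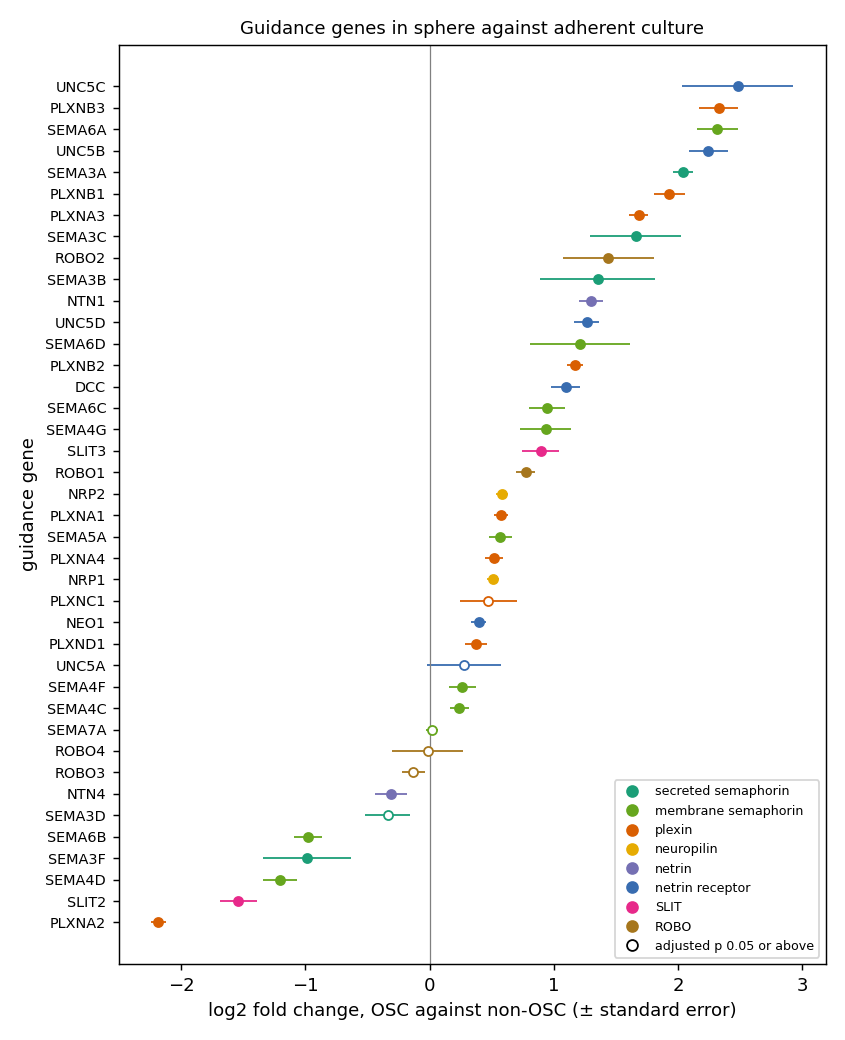
Log2 fold change of the 40 tested guidance genes in OSCs against non-OSCs (horizontal axis; bars are ± 1 standard error, n = 3 libraries each), colored by role. Filled points passed an adjusted p of 0.05, and 28 of them lie to the right of 0 and 6 to the left.

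Among the secreted semaphorins, 3 of 5 tested rose and 1 fell. SEMA3A (ENSG00000075213.11; GRCh38 chromosome 7, 83955777 to 84492724), which collapses growth cones through NRP1 and a class A plexin, had 27, 22.4 and 27.9 CPM in the non-OSC libraries and 108, 111 and 100 CPM in the OSC libraries. It rose by 2.04 (standard error 0.083, adjusted p = 4.13e-15) on the log2 scale, and the groups were far apart. SEMA3B and SEMA3F, neighbors on the short arm of chromosome 3 that are studied as tumor suppressors, went in opposite directions at low counts. SEMA3B had 3 to 15 counts in non-OSCs and 14 to 29 in OSCs, with a log2 fold change of 1.35 (adjusted p = 0.0148), and SEMA3F had 23 to 36 and 8 to 21 counts, with a log2 fold change of -0.99 (adjusted p = 0.0187). Both calls depended on single libraries. The SEMA3B call was lost without replicate 1 or 3 of non-OSCs or replicate 2 of OSCs (log2 fold change 1.18, 0.98 and 1.10), and the rise was 2.11 without replicate 2 of non-OSCs, the library with the most counts in that group. The SEMA3F call was lost without non-OSC replicate 2 or OSC replicate 1 (-0.81 and -0.75). SEMA3C, a ligand of both neuropilins, rose from 7 to 11 counts to 23 to 28, by 1.66 on the log2 scale (adjusted p = 0.000458). SEMA3D, at 8.29, 6.79 and 7.93 CPM in non-OSCs and 6.16, 6.27 and 5.8 CPM in OSCs, was lower in every OSC library but did not pass (adjusted p = 0.112).

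Membrane-bound semaphorins divided into 7 that were higher and 2 that were lower, of 10 tested. SEMA6A (ENSG00000092421.17; chromosome 5, 116443555 to 116574823), a ligand of PLXNA2 and PLXNA4, had 4.63, 2.96 and 4.19 CPM in non-OSCs and 19.6, 20.6 and 18.9 CPM in OSCs. This was a rise of 2.32 (standard error 0.17, adjusted p = 6.91e-11) on the log2 scale, 5.02-fold in the group means. Its relative SEMA6B (chromosome 19, 4542593 to 4581776) went the other way, with 33.2, 36.7 and 33.4 CPM in non-OSCs and 14.9, 17.1 and 20.3 CPM in OSCs, and fell by 0.98 (standard error 0.11, adjusted p = 9.52e-08). Of the 75-base stretches of SEMA6B, 1.05% also occur in other annotated genes. SEMA4D, which osteoclasts release to restrain osteoblasts through PLXNB1, had 19, 19.1 and 17.4 CPM in non-OSCs and 7.64, 8.2 and 8.21 CPM in OSCs. It fell by 1.21 (standard error 0.13, adjusted p = 8.01e-08), with no overlap between the groups. SEMA5A, a semaphorin with thrombospondin repeats that binds PLXNB3, had 26.6, 24.2 and 25.6 CPM in non-OSCs and 40.7, 34.9 and 38 CPM in OSCs and rose by 0.57 (adjusted p = 1.75e-05).

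SEMA6C had 8.1, 8.43 and 8.81 CPM in non-OSCs and 13.8, 17.3 and 17.5 CPM in OSCs, a rise of 0.94 (adjusted p = 7.63e-06), and SEMA6D, a ligand of PLXNA1, rose from 6 to 13 counts to 15 to 29, by 1.21 (adjusted p = 0.0126). The SEMA6D call was lost without non-OSC replicate 1 or OSC replicate 2 (adjusted p = 0.0864 and 0.0855). SEMA4G, with 4.34, 3.28 and 4.41 CPM in non-OSCs and 7.39, 7.69 and 7.97 CPM in OSCs, rose by 0.93 (adjusted p = 0.000427). Exons on the other strand cover 28% of the SEMA4G exons, and since the strandedness of the libraries is not given in the sources used here, reads of both genes cannot be told apart. The class 4 genes SEMA4C and SEMA4F rose only slightly. SEMA4C, a ligand of PLXNB2, had 51.1, 63 and 53.4 CPM in non-OSCs and 65.9, 63.8 and 68.1 CPM in OSCs (log2 fold change 0.24, adjusted p = 0.0122), and the call was lost without non-OSC replicate 1 or 3 (adjusted p = 0.0577 and 0.0541). SEMA4F had 19, 17.2 and 20.1 CPM and 23.9, 20.9 and 22.8 CPM (log2 fold change 0.26, adjusted p = 0.0418). Its call was lost with DESeq2 (0.109), without the filter (0.0648), and without replicate 1 or 2 of non-OSCs or replicate 1 or 3 of OSCs (0.0604, 0.156, 0.129 and 0.0804). SEMA7A, which binds PLXNC1 and integrins, had the highest mean per kb in both conditions, although in OSCs it and PLXNB2 overlapped within their spread. It had 159, 167 and 164 CPM in non-OSCs and 165, 169.9 and 162 CPM in OSCs. These overlapped (log2 fold change 0.020, standard error 0.051, adjusted p = 0.749).

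Plexins, the signaling receptors of semaphorins, were higher in OSCs in 7 of 9 genes. The exception that fell was PLXNA2 (ENSG00000076356.7; chromosome 1, 208022242 to 208244384), a receptor of SEMA6A and of secreted semaphorins with a neuropilin. It had 248, 262 and 261 CPM in non-OSCs and 58, 52 and 59.9 CPM in OSCs. This fall of 2.18 (standard error 0.061, adjusted p = 7.77e-18) left 0.221 of the non-OSC level, the furthest fall among the 40 genes tested. The other class A plexins rose. PLXNA1 had 203, 248 and 228 CPM in non-OSCs and 318, 343 and 349 CPM in OSCs (log2 fold change 0.57, adjusted p = 2.55e-08). PLXNA3, a receptor for SEMA3A and SEMA3F with the neuropilins, had 43.7, 54.2 and 45.1 CPM and 141, 155 and 162 CPM (log2 fold change 1.69, adjusted p = 3.02e-14). PLXNA4, which signals for SEMA3A and for class 6 semaphorins, had 55.2, 57.2 and 56.4 CPM and 86.2, 76.4 and 79.6 CPM (log2 fold change 0.52, adjusted p = 1.12e-06).

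All 3 class B plexins rose. PLXNB1, the receptor of SEMA4D, had 9.64, 15.7 and 12.1 CPM in non-OSCs and 44.6, 46.8 and 50.4 CPM in OSCs and rose by 1.93 (standard error 0.12, adjusted p = 1.1e-11), whereas SEMA4D itself was lower in OSCs. PLXNB2, the receptor of SEMA4C, had 119.6, 146 and 143 CPM and 288, 306 and 325 CPM, a rise of 1.17 (standard error 0.065, adjusted p = 8.1e-13). PLXNB3, the receptor of SEMA5A, had 7.14, 5.25 and 4.63 CPM and 25.4, 27.2 and 33.8 CPM and rose by 2.33 (standard error 0.16, adjusted p = 2.54e-11). The neighboring gene SRPK3 shares 17.3% of the 75-base stretches of PLXNB3, so reads may be divided between them and its value is uncertain. PLXND1, which binds SEMA3E directly, had 36.3, 41.1 and 43.6 CPM in non-OSCs and 48.3, 52.6 and 55.5 CPM in OSCs (log2 fold change 0.37, adjusted p = 0.000778). PLXNC1, the plexin of SEMA7A, had 33 to 45 counts in non-OSCs and 46 to 53 in OSCs and did not pass (log2 fold change 0.47, adjusted p = 0.0809), although it did without non-OSC replicate 3 or OSC replicate 2 (adjusted p = 0.0468 and 0.0382). Exons on the other strand cover 9.88% of the PLXNC1 exons.

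Both neuropilins rose to a similar extent. NRP1, the co-receptor of SEMA3A and of VEGFA, had 226, 206 and 213 CPM in non-OSCs and 305, 302 and 314 CPM in OSCs, a rise of 0.51 (standard error 0.048, adjusted p = 5.9e-09), and 4.87% of its exons lie opposite another gene's exons. NRP2, the co-receptor of SEMA3F, had 153, 159 and 162 CPM and 231, 237 and 243 CPM, a rise of 0.58 (standard error 0.049, adjusted p = 1.03e-09). The lowest OSC library lay above the highest non-OSC library for each.

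The 2 netrins that could be tested moved in opposite directions. NTN1 (ENSG00000065320.9; chromosome 17, 9021510 to 9244000), the classical attractant of commissural axons, had 22.9, 27.4 and 30.3 CPM in non-OSCs and 63.9, 61.6 and 72.8 CPM in OSCs, and rose by 1.3 (standard error 0.10, adjusted p = 1.4e-10). NTN4, a laminin-binding netrin of basement membranes, had 17.1, 15 and 16.2 CPM and 12.6, 14.1 and 12.2 CPM and fell by 0.31 (standard error 0.13, adjusted p = 0.0388). The NTN4 call was weak. It was lost with DESeq2 (0.102), with library size alone (0.0667), without the filter (0.0872), and without replicate 1 or 3 of non-OSCs or replicate 1 or 3 of OSCs (0.114, 0.0757, 0.0923 and 0.122).

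Of the 6 netrin receptors, 5 rose. UNC5B, a dependence receptor that also acts in vessels, had 3.95, 6.24 and 6.06 CPM in non-OSCs and 23.8, 24.5 and 28.3 CPM in OSCs and rose by 2.24 (standard error 0.16, adjusted p = 4.32e-11). UNC5C, a repulsive netrin receptor, rose by 2.48 (adjusted p = 5.61e-05), from 2 to 8 counts per library to 19 to 27. For both, the lowest OSC library lay well above the highest non-OSC library. UNC5D had 16.8, 15.9 and 14.2 CPM in non-OSCs and 39.8, 37.8 and 35.3 CPM in OSCs (log2 fold change 1.26, adjusted p = 5.03e-10). The attractive receptor DCC had 14.6, 12.4 and 14.8 CPM and 33.4, 30.1 and 25.9 CPM (log2 fold change 1.1, adjusted p = 5.51e-08). NEO1, its relative that also binds repulsive guidance molecules, had 84.9, 78.2 and 81.9 CPM and 109, 105 and 109 CPM (log2 fold change 0.40, adjusted p = 6.62e-06). The groups were apart in these 3 as well. UNC5A, at 26 to 30 counts in non-OSCs and 19 to 48 in OSCs, did not pass (log2 fold change 0.28, adjusted p = 0.424).

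SLIT2 and SLIT3 also moved apart. SLIT2 (ENSG00000145147.20; chromosome 4, 20251905 to 20620561), a repellent that binds ROBO1 and ROBO2, had 18.1, 18.9 and 16.9 CPM in non-OSCs and 5.54, 5.77 and 7.25 CPM in OSCs, a fall of 1.54 (standard error 0.15, adjusted p = 1.04e-08). SLIT3 had 7.81, 7.77 and 8.48 CPM and 13.7, 16.9 and 14 CPM, a rise of 0.89 (standard error 0.15, adjusted p = 1.92e-05). The receptor ROBO1 had 46.6, 46 and 43.1 CPM in non-OSCs and 81, 73 and 78.2 CPM in OSCs and rose by 0.77 (adjusted p = 5.79e-09), and ROBO2 rose by 1.44 from 7 to 13 counts to 20 to 37 (adjusted p = 0.00173). ROBO3, which prevents premature response to SLITs in crossing axons, had 30.9 ± 1.86 CPM (SD, n = 3) in non-OSCs and 28.2 ± 0.519 CPM in OSCs (adjusted p = 0.218). ROBO4, an endothelial member of the family, had 28 to 41 counts in non-OSCs and 21 to 44 in OSCs (adjusted p = 0.97), and 18% of its exons lie opposite exons of another gene. Neither ROBO3 nor ROBO4 passed.

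The hairpins were compared with shCtrl to ask which of these genes differ with each PDK1 hairpin in spheres. Both comparisons use the same 3 shCtrl libraries, so each one's values are given side by side and no overlap between them is counted as a result. With shPDK1#1, 2 of 40 genes tested were higher and 3 lower, 12.5% in all, against 3.06% of all 14574 genes tested (1.62% higher and 1.44% lower). With shPDK1#2, 10 were higher and 14 lower, 60% in all, against 26.2% of all genes (12% higher and 14.2% lower). The median log2 fold changes were -0.018 and -0.070, against 0.0024 and 0.0083 over all genes. The count with shPDK1#1 was 3 without shCtrl replicate 3 or shPDK1#1 replicate 1 or 3, and over all genes it went from 446 to 270, 282 and 245 without shCtrl replicate 1, shCtrl replicate 2 and shPDK1#1 replicate 3. As description only, SEMA5A, NRP2 and PLXND1 were lower and NTN4 higher with each hairpin against these shared libraries. Both PLXND1 calls and the NTN4 call with shPDK1#2 were lost in some alternatives.

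**Figure D2:**
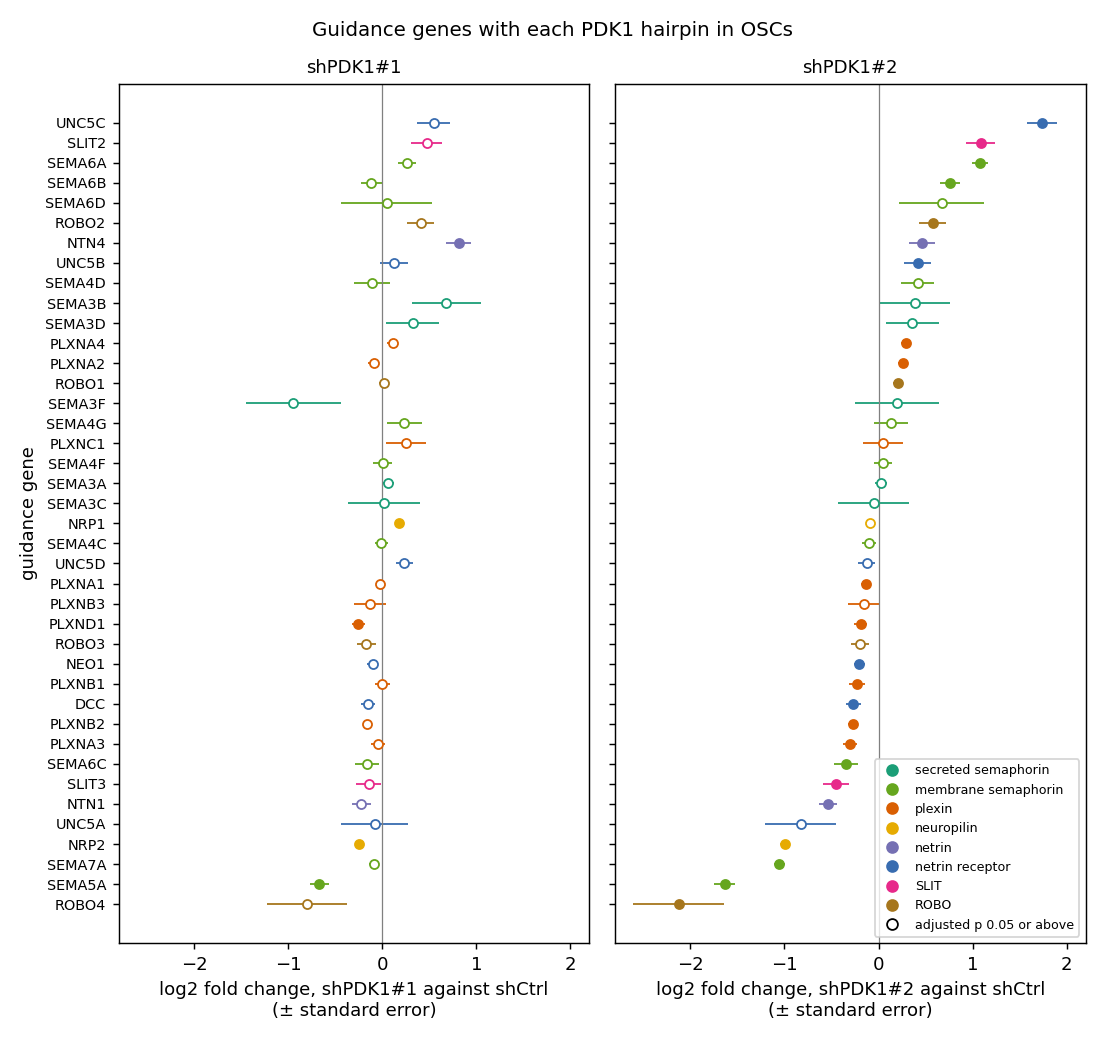
Log2 fold change of the 40 tested guidance genes with shPDK1#1 (left) and shPDK1#2 (right) against the same shCtrl libraries (horizontal axes; bars are ± 1 standard error, n = 3 libraries each), in the order of the values with shPDK1#2 and colored by role. Filled points passed an adjusted p of 0.05, 5 on the left and 24 on the right, and UNC5C lies highest and ROBO4 and SEMA5A lowest with shPDK1#2.

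Ligands that fell with shPDK1#2 were led by SEMA5A and SEMA7A. SEMA5A (ENSG00000112902.12; chromosome 5, 9035033 to 9546075) had 33.8, 40 and 34.9 CPM in the shCtrl libraries, 21.8, 23.7 and 23.1 in those of shPDK1#1 and 13.2, 12.1 and 9.58 in those of shPDK1#2. None of these 3 groups overlapped. The log2 fold change was -0.67 (standard error 0.10, adjusted p = 0.000189) with shPDK1#1 and -1.63 (standard error 0.11, adjusted p = 1.84e-11) with shPDK1#2, which left 0.630 and 0.321 of the shCtrl level. Exons of another gene lie opposite 3.54% of the SEMA5A exons. SEMA7A (ENSG00000138623.10; chromosome 15, 74409289 to 74433958) had 112, 108 and 113 CPM under shCtrl, 102, 107 and 104 under shPDK1#1 and 54.6, 52.9 and 53 under shPDK1#2. With shPDK1#1 the log2 fold change was -0.086 and did not pass (adjusted p = 0.491), and with shPDK1#2 the gene fell by 1.05 (standard error 0.056, adjusted p = 1.63e-13). SEMA6C had 13.3, 17.1 and 15.4 CPM in the shCtrl libraries, 15.3, 13.2 and 12.6 in those of shPDK1#1 and 11.6, 11.9 and 12.4 in those of shPDK1#2 (log2 fold change -0.35 with shPDK1#2, adjusted p = 0.0464). Its call was lost with DESeq2 (0.114), without the filter (0.0794) and without shCtrl replicate 2 or 3 or any 1 of the shPDK1#2 libraries (between 0.0722 and 0.231).

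NTN1 and SLIT3, both higher in OSCs than in non-OSCs, were lower with shPDK1#2 than with shCtrl. The NTN1 level with shCtrl (32.9 CPM) was below that in OSCs (66.1 CPM), a difference between experiments that was not tested. NTN1 had 35.1, 29.7 and 33.8 CPM under shCtrl, 29, 30.2 and 25.5 under shPDK1#1 and 21.4, 25 and 21.4 under shPDK1#2. Its log2 fold change was -0.22 with shPDK1#1 (adjusted p = 0.274) and -0.54 with shPDK1#2 (adjusted p = 0.000152). SLIT3 had 12.7, 14.7 and 16.8 CPM in the shCtrl libraries, 13.1, 14.9 and 12 in those of shPDK1#1 and 11.4, 11.1 and 9.58 in those of shPDK1#2 (log2 fold change -0.45 with shPDK1#2, adjusted p = 0.0165). The SLIT3 call was lost without shCtrl replicate 3 or shPDK1#2 replicate 3 (adjusted p = 0.102 and 0.0795).

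Ligands that rose with shPDK1#2 were SLIT2, SEMA6A, SEMA6B and NTN4. SLIT2 had 8.22, 7.33 and 7.7 CPM under shCtrl, 13.2, 9.21 and 10.1 under shPDK1#1 and 18.6, 16.5 and 14.2 under shPDK1#2. The log2 fold change was 0.47 with shPDK1#1, which did not pass (adjusted p = 0.126), and 1.09 with shPDK1#2 (adjusted p = 4.04e-06). SEMA6A had 19.6, 20.3 and 19.4 CPM in the shCtrl libraries, 23.9, 23.9 and 23.5 in those of shPDK1#1 and 42.9, 40.2 and 42 in those of shPDK1#2. It rose by 1.08 (standard error 0.084, adjusted p = 2.77e-10) with shPDK1#2, and with shPDK1#1 its log2 fold change of 0.26 did not pass (adjusted p = 0.131). SEMA6B had 16.3, 19.4 and 15.2 CPM under shCtrl, 15.8, 15.1 and 16.3 under shPDK1#1 and 29.1, 30.8 and 26.4 under shPDK1#2, and rose with shPDK1#2 by 0.75 (standard error 0.11, adjusted p = 4.35e-06).

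NTN4 was the ligand that rose with each hairpin. It had 9.32, 8.33 and 8.32 CPM in the shCtrl libraries, 16.7, 13.8 and 15.3 in those of shPDK1#1 and 11.6, 12.2 and 11.9 in those of shPDK1#2. The rise was 0.81 (standard error 0.13, adjusted p = 0.000475) with shPDK1#1 and 0.46 (standard error 0.14, adjusted p = 0.0132) with shPDK1#2, and the second call was lost without shCtrl replicate 2 (adjusted p = 0.0515). Of the 5 secreted semaphorins tested, 0 passed with either hairpin by edgeR (0 at an unadjusted p under 0.05 with each) and 0 by DESeq2. SEMA3A had 133, 139 and 136 CPM under shCtrl, 151, 132 and 144 under shPDK1#1 and 148, 122 and 145 under shPDK1#2, and these overlapped (adjusted p = 0.736 and 0.821). SEMA3B, SEMA3C, SEMA3D and SEMA3F had between 3 and 53 counts in the hairpin libraries. SEMA4D, SEMA4C, SEMA4F, SEMA4G and SEMA6D did not pass against shCtrl either, the nearest being SEMA4D with shPDK1#2 (log2 fold change 0.41, adjusted p = 0.0901).

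The 250 bases before the start of genes that moved with shPDK1#2 are shown for reference. The candidates were the 6 genes with the largest log2 fold change of either sign among those called with at least 5 CPM, which were UNC5C, SEMA5A, SLIT2, SEMA6A, SEMA7A and NRP2. Sequences are from RefSeq on GRCh38.p14, where 39 of the 47 genes had an entry, and are written 5′ to 3′ on the strand of the gene. They are shown for SEMA5A and SEMA7A, which fell, and SLIT2, which rose. The windows of UNC5C and NRP2 overlapped annotated exons of protein-coding genes and are not printed, and SEMA6A had no entry. Capitals mark the GC box GGGCGG on either strand, the letters bound by factors of the SP family.
SEMA5A, chr5:9546076-9546325, minus strand: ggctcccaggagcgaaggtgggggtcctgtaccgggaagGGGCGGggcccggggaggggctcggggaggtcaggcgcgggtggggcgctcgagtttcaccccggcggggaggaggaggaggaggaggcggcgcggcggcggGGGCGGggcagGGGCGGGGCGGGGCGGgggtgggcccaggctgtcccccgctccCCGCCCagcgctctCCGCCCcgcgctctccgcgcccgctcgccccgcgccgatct
SEMA7A, chr15:74433959-74434208, minus strand: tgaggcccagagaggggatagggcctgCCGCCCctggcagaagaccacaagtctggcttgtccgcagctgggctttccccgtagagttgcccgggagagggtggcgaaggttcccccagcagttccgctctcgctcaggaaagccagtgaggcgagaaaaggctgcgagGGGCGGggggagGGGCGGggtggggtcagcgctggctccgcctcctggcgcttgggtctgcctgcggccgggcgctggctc
SLIT2, chr4:20251655-20251904, plus strand: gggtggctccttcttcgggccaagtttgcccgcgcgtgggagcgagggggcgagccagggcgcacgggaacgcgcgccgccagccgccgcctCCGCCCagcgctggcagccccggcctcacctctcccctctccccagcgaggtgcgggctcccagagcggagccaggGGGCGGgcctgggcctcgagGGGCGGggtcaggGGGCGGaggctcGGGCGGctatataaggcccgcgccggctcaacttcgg

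The windows held 7, 3 and 5 GC boxes, with neighbors in SEMA5A that share a base, and 82%, 70% and 77.2% G and C. Of 63 such windows of guidance genes, 61.9% hold a GC box. Among all 35116 RefSeq windows of the same length it is present in 42.6%. The CRE (TGACGTCA), which is in 1.65% of those windows, the AP-1 motif (TGANTCA, 6.57%), the E-box CACGTG (6.34%) and the CCAAT box (CCAAT, 32%), each sought on both strands, had no match in these 3 windows. A match describes letters only and is no evidence of binding.

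Among the receptors, NRP2 fell furthest at high levels. NRP2 (ENSG00000118257.17; chromosome 2, 205681990 to 205798133) had 257, 249.9 and 258 CPM in the shCtrl libraries, 218, 225 and 202 in those of shPDK1#1 and 130.4, 130.1 and 123 in those of shPDK1#2. It fell by 0.25 (standard error 0.046, adjusted p = 0.00187) with shPDK1#1 and by 1.0 (standard error 0.048, adjusted p = 1.93e-14) with shPDK1#2, where 0.501 of the shCtrl level remained. NRP1 behaved differently, with 339.6, 341 and 310.5 CPM under shCtrl, 378, 368 and 374 under shPDK1#1 and 313, 308 and 313 under shPDK1#2. It rose by 0.17 with shPDK1#1 (adjusted p = 0.0133), a call lost without shCtrl replicate 3 or shPDK1#1 replicate 1 or 3 (0.135, 0.0534 and 0.0741). With shPDK1#2 its log2 fold change of -0.087 did not pass (adjusted p = 0.123), although it did without shCtrl replicate 3 (0.0325).

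Of the 9 plexins, 5 fell and 2 rose with shPDK1#2, with log2 fold changes between -0.30 and 0.29 over all 9, and 1 fell with shPDK1#1. PLXNB2 had 276, 262 and 270.3 CPM in the shCtrl libraries, 231, 266 and 228 in those of shPDK1#1 and 226, 229 and 214 in those of shPDK1#2 (log2 fold change -0.16, adjusted p = 0.0961, and -0.27, adjusted p = 0.000174). With shPDK1#1 it passed without the filter (0.0329) or without shPDK1#1 replicate 2 (0.00198). PLXNA3 had 90.7, 94.5 and 89.8 CPM under shCtrl, 82.6, 97 and 86.7 under shPDK1#1 and 70.6, 85 and 67.4 under shPDK1#2, a fall of 0.30 with shPDK1#2 (adjusted p = 0.0028). PLXND1 had 70.9, 65.8 and 68.5 CPM in the shCtrl libraries, 53.6, 62.3 and 55.7 in those of shPDK1#1 and 56.6, 63.3 and 60.3 in those of shPDK1#2, a log2 fold change of -0.25 (adjusted p = 0.0421) and -0.19 (adjusted p = 0.0466). Both PLXND1 calls were close to the threshold. With shPDK1#1 the call was lost without any 1 of the shCtrl libraries, shPDK1#1 replicate 1 or 3 or shPDK1#2 replicate 3 (between 0.0576 and 0.203), and with shPDK1#2 with DESeq2 (0.0826), without the filter (0.0629) and without any 1 of the shCtrl libraries, shPDK1#1 replicate 3 or shPDK1#2 replicate 1 or 3 (between 0.0555 and 0.202).

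PLXNA1 and PLXNB1 fell slightly. PLXNA1 had 308, 316 and 314 CPM under shCtrl, 287, 329.8 and 304 under shPDK1#1 and 290.4, 289 and 274 under shPDK1#2 (log2 fold change -0.14 with shPDK1#2, adjusted p = 0.0285), and the call was lost without any 1 of the shCtrl libraries or shPDK1#2 replicate 3 (between 0.05 and 0.14). PLXNB1 had 43.7, 41.2 and 41.9 CPM in the shCtrl libraries, 37.7, 46.7 and 42.2 in those of shPDK1#1 and 38.5, 35.7 and 33.6 in those of shPDK1#2 (log2 fold change -0.23, adjusted p = 0.0443). Its call was lost with DESeq2 (0.0827), without the filter (0.0535) and without any 1 of the shCtrl libraries, shPDK1#1 replicate 3 or shPDK1#2 replicate 2 or 3 (between 0.0557 and 0.172). The plexins that rose were PLXNA2 and PLXNA4. PLXNA2 had 113, 104 and 98.5 CPM under shCtrl, 97.8, 101 and 97.9 under shPDK1#1 and 121, 133 and 124 under shPDK1#2, a rise of 0.26 with shPDK1#2 (adjusted p = 0.00109). PLXNA4 had 80.2, 80.3 and 79.5 CPM in the shCtrl libraries, 82, 84.4 and 92 in those of shPDK1#1 and 98.2, 97.9 and 97.6 in those of shPDK1#2, a rise of 0.29 (adjusted p = 0.000315). PLXNB3 and PLXNC1 did not pass with either hairpin (adjusted p between 0.561 and 0.897).

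UNC5C was the netrin receptor that changed most. UNC5C (ENSG00000182168.16; chromosome 4, 95162504 to 95549206) had 6.03, 5.12 and 4.35 CPM under shCtrl, 8.21, 8.06 and 6.61 under shPDK1#1 and 15.2, 19.1 and 17.9 under shPDK1#2. The log2 fold change was 0.54 with shPDK1#1, which did not pass (adjusted p = 0.105), and 1.74 with shPDK1#2 (adjusted p = 4.98e-09). UNC5B had 12.3, 12.2 and 15.5 CPM in the shCtrl libraries, 16.8, 16.3 and 10.8 in those of shPDK1#1 and 16.3, 19.6 and 17.3 in those of shPDK1#2, a rise of 0.42 with shPDK1#2 (adjusted p = 0.0365) that was lost with DESeq2 (0.0754) and without shCtrl replicate 1 or 2 or shPDK1#2 replicate 2 or 3 (between 0.065 and 0.145). With shPDK1#1 the UNC5B libraries lay on both sides of shCtrl. The receptors DCC and NEO1 moved the other way. DCC had 40.8, 36.9 and 38.4 CPM under shCtrl, 35.6, 33.8 and 35.2 under shPDK1#1 and 31.6, 32.8 and 32.1 under shPDK1#2, a fall of 0.27 with shPDK1#2 (adjusted p = 0.0124) that was lost without shCtrl replicate 1 (0.0708). NEO1 had 102, 118 and 119.5 CPM in the shCtrl libraries, 106, 106 and 105 in those of shPDK1#1 and 96.6, 100 and 98.5 in those of shPDK1#2, a fall of 0.20 with shPDK1#2 (adjusted p = 0.00928) that was lost without shCtrl replicate 2 or 3 (0.0685 and 0.068). UNC5A, at 8 to 17 counts with shPDK1#2 against 19 to 22 with shCtrl, and UNC5D did not pass against shCtrl (adjusted p = 0.112 and 0.359 with shPDK1#2). Both also pointed down with shPDK1#2, at log2 fold changes of -1.11 to -0.547 and -0.173 to -0.0911 with a library left out.

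The SLIT receptors ROBO1 and ROBO2 rose with shPDK1#2. ROBO1 had 90.1, 84.3 and 92.3 CPM under shCtrl, 85.6, 92.4 and 91.5 under shPDK1#1 and 102, 103 and 103 under shPDK1#2, a rise of 0.21 (adjusted p = 0.00575) that was lost without shCtrl replicate 2 (0.0542). ROBO2 had 7.78, 8.33 and 7.58 CPM in the shCtrl libraries, 11.3, 9.74 and 10.5 in those of shPDK1#1 and 11.2, 12.3 and 11.9 in those of shPDK1#2, a rise of 0.57 (adjusted p = 0.00334). With shPDK1#1 the ROBO2 log2 fold change of 0.41 did not pass (adjusted p = 0.146). ROBO4 was lower by 2.12 with shPDK1#2 (adjusted p = 0.00156), from 17 to 26 counts to 5 to 7. It could not have passed the filter on low counts without shCtrl, where it was higher, so this call is description only. With shPDK1#1 it had 7 to 25 counts and did not pass, at log2 fold changes of -1.57 to -0.485 with a library left out. ROBO3 did not pass (adjusted p = 0.471 and 0.157).

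shPDK1#2, which left less PDK1 mRNA, was compared with shPDK1#1 directly, since a call with only 1 hairpin does not show that they differ. The degree of PDK1 loss and effects of either hairpin on genes other than PDK1 cannot be told apart in this design. Of the 40 guidance genes, 8 were higher and 7 lower with shPDK1#2 (37.5%), against 16.3% of all genes tested (6.5% higher and 9.78% lower), with a median of -0.095 against 0.0045. UNC5C was higher by 1.2 (standard error 0.15, adjusted p = 1.72e-06), SEMA6B by 0.87 (standard error 0.11, adjusted p = 1.2e-06), SEMA6A by 0.81 (standard error 0.082, adjusted p = 4.88e-08) and SLIT2 by 0.62 (standard error 0.14, adjusted p = 0.00326). In each of these 4 the libraries of the hairpins did not overlap. Lower were SEMA5A (-0.97, standard error 0.12), SEMA7A (-0.97, 0.056) and NRP2 (-0.75, 0.048). PLXNA2, PLXNA4 and ROBO1 were also higher, and PLXNA3, NRP1 and NTN1 lower, by between 0.18 and 0.35 on the log2 scale. UNC5D, whose change passed with neither hairpin against shCtrl, had 26.9, 24.1 and 26 CPM under shCtrl, 32.3, 31.1 and 27.4 under shPDK1#1 and 24, 24.1 and 22.2 under shPDK1#2, and was lower with shPDK1#2 than with shPDK1#1 (log2 difference -0.36, adjusted p = 0.00685). SEMA4D was the reverse case, with 9.32, 9.13 and 5.96 CPM in the shCtrl libraries, 5.72, 9.42 and 7.5 in those of shPDK1#1 and 11.4, 10.6 and 10.7 in those of shPDK1#2, and a log2 difference of 0.52 (adjusted p = 0.045) whose call was lost with DESeq2 (0.0764) and without shPDK1#1 replicate 1 or 3 or any 1 of the shPDK1#2 libraries (between 0.0732 and 0.192).

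Since the OSC and non-OSC libraries are separate from the hairpin libraries, the directions of both experiments could be set side by side. Levels in OSCs and in shCtrl spheres, normalized apart and not tested, were not always alike. PLXNA2 had 56.65 ± 4.14 CPM in OSCs and 105.1 ± 7.51 CPM with shCtrl, whereas SEMA6A had 19.69 ± 0.899 and 19.76 ± 0.466 CPM. Opposite directions are therefore not read as a return from the OSC level. With shPDK1#2, 22 guidance genes were called in both, and 16 of these (72.7%) had opposite directions. Of these 16, 12 rose in OSCs and fell with shPDK1#2, among them SEMA5A, NRP2, NTN1, SLIT3, DCC and PLXNB2, and 4 fell in OSCs and rose with shPDK1#2, namely SEMA6B, PLXNA2, NTN4 and SLIT2. The other 6, SEMA6A, UNC5B, UNC5C, ROBO1, ROBO2 and PLXNA4, were higher in both. Over all genes, 80.7% of the 3033 called in both had opposite directions, so the share among the guidance genes was near the background. With shPDK1#1, 4 of 5 guidance genes called in both were opposite (80.0%), against 54.2% of 380 genes.

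Other genes of these pathways were taken as 3 lists, read beside medians over all genes of -0.0053 in OSCs, 0.0024 with shPDK1#1 and 0.0083 with shPDK1#2. The lists too were chosen with earlier results of these data known, so their shares are description and no independent support. Of 23 partner ligands and co-receptors, 18 were tested, and 12 rose and 4 fell in OSCs (88.9%, against 63.9% of all genes), with a median log2 fold change of 0.80. L1CAM, a neural adhesion protein that couples neuropilin to SEMA3A responses, had 6.15 ± 0.979 CPM in non-OSCs and 87.9 ± 0.584 CPM in OSCs (SD, n = 3 each; log2 fold change 3.83), and ADGRL3, a partner of FLRT and UNC5 proteins, rose by 2.62. KDR, the VEGF receptor that works with neuropilins, fell by 3.46, from 5.58 ± 0.410 CPM to 0.494 ± 0.0114 CPM, and ERBB2 by 0.27. With shPDK1#1, 1 of the 18 rose (VEGFA, 0.39) and 1 fell (FLRT2, -0.24), which is 11.1% against 3.06% of all genes. With shPDK1#2, 5 rose and 8 fell (72.2%, against 26.2% of all genes) at a median of -0.18, led by PLXDC2 (0.87) and RGMA (0.65) above and L1CAM (-0.90) and FLRT3 (-0.69) below.

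Of 25 semaphorin and plexin effectors, 23 were tested in the OSC table and 22 in the hairpin table. In OSCs 13 rose and 3 fell, and the share called, 69.6%, was near the 63.9% of all genes. The median was 0.21, and the collapsin response mediators DPYSL2 (1.47) and DPYSL3 (1.2), which link semaphorins to microtubules, rose most, whereas the actin oxidases MICAL3 (-0.50) and MICAL2 (-0.38) fell. With shPDK1#1, 1 rose and 3 fell (18.2%, against 3.06% of all genes), and with shPDK1#2, 3 rose and 13 fell (72.7%, against 26.2%), with medians of -0.063 and -0.18. DPYSL5 had 29.5 ± 1.62 CPM under shCtrl, 20.8 ± 1.5 under shPDK1#1 and 13.5 ± 0.360 under shPDK1#2 (SD, n = 3 each), falls of 0.50 and 1.13. DPYSL3 fell by 0.20 and 0.70, and TIAM1, an activator of RAC1, rose by 0.26 and 0.42.

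Of 23 netrin and SLIT effectors, all tested, 11 rose and 5 fell in OSCs, with a median of 0.15, and the share called, 69.6%, was again near the 63.9% of all genes. MAGED1 (0.92), a partner of UNC5 receptors, and SHTN1 (0.83) rose most, and SRGAP1 (-1.73), a GTPase-activating protein of ROBO1, and DAPK1 (-0.62) fell most. With shPDK1#1, 0 passed by edgeR, 3 had an unadjusted p under 0.05, and 0 passed by DESeq2, where 3.06% of all genes passed by edgeR. With shPDK1#2, 1 rose (ENAH, 0.20) and 10 fell (47.8%, against 26.2% of all genes) at a median of -0.16, led by ABL2 (-0.41) and ABLIM3 (-0.37). Between the hairpins, 4 partner ligands and co-receptors were higher and 7 lower with shPDK1#2 (61.1%), 1 semaphorin and plexin effector was higher and 7 were lower (36.4%), and 5 netrin and SLIT effectors were lower (21.7%), against 16.3% of all genes.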

How the data were processed

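RNA-seq was run on 15 libraries of 143B cells, 3 in each of 5 conditions. The authors deposited expected counts per gene in 2 tables, which RSEM made from paired-end reads. Submitters' processing notes name Trimmomatic 0.39, FastQC 0.12.1, STAR 2.7.11a, RSEM 1.3.3 and GRCh38.p14, whereas the annotation and strandedness are not given in the sources used here. Expected counts were rounded to whole numbers (6.85% and 6.92% of values were not whole). Column headings 2D, 3D and con were taken as non-OSC, OSC and shCtrl, and 0 columns were left unmapped.

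Each table was fitted with edgeR 4.0.16 (R 4.3.3; filterByExpr, TMM, quasi-likelihood test), with all its groups sharing the spread, at a Benjamini-Hochberg adjusted p of 0.05, and DESeq2 1.42.0 was an alternative. No replicate pair agreed within counting error (a chi-square statistic of 1.96 to 3.56 for each degree of freedom). Standard errors were set so that the squared ratio of the log2 fold change to its error equals the F statistic. CPM per kb used the union of exons of GENCODE 44, which also gave gene positions and overlaps, and promoter windows came from RefSeq tables. The fits were tested on simulated data with 200 changed genes. Figures used matplotlib 3.10.9 in Python 3.11.15. The replicate numbers were tested for pairing and did not pair the libraries.

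Members and lists were chosen with earlier results of these data known. Values in every library are given for members with at least 5 CPM in a condition that were called in their table and for members called with both hairpins. Other members are given by range and counts, and of each list up to 2 of the largest called rises and falls per comparison. A few further values, chosen after they were seen, are given for members that were not called.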

Additional observations from a re-analysis of the deposited data

Results flagged for a closer look

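Of the 40 guidance genes tested in the hairpin table, 15 had a different level with shPDK1#2 than with shPDK1#1, that is, the effects of the hairpins differed beyond the spread between libraries (edgeR's quasi-likelihood test of the difference, Benjamini-Hochberg adjustment over all genes, n = 3 libraries each). The shCtrl libraries enter this difference only through the shared estimate of the spread. Among the semaphorins, the log2 difference was 0.52 for SEMA4D (adjusted p = 0.045), -0.97 for SEMA5A (1.09e-06), 0.81 for SEMA6A (4.88e-08), 0.87 for SEMA6B (1.2e-06) and -0.97 for SEMA7A (1.61e-12). Among the plexins it was 0.35 for PLXNA2 (7.04e-05), -0.26 for PLXNA3 (0.0153) and 0.18 for PLXNA4 (0.0257). The neuropilins both had less with shPDK1#2, at -0.26 for NRP1 (3.53e-05) and -0.75 for NRP2 (1.14e-11). Of the netrin and SLIT systems, the values were -0.32 for NTN1 (0.0288), 1.20 for UNC5C (1.72e-06), -0.36 for UNC5D (0.00685), 0.62 for SLIT2 (0.00326) and 0.19 for ROBO1 (0.0168). Besides SEMA4D, 4 of these calls were lost when single libraries were left out, with adjusted p of 0.0802, 0.109, 0.118 and 0.111 for NTN1 (without shPDK1#1 replicate 1 or 2 or shPDK1#2 replicate 1 or 3) and 0.0569 with DESeq2, 0.117, 0.0641, 0.0751, 0.0519 and 0.0654 for PLXNA4 (without shPDK1#1 replicate 1 or 2 or any 1 of the shPDK1#2 libraries), 0.0851 and 0.0528 for ROBO1 (without shPDK1#1 replicate 1 or shPDK1#2 replicate 3) and 0.0818, 0.0861 and 0.112 for PLXNA3 (without shPDK1#1 replicate 2 or shPDK1#2 replicate 1 or 3).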

How the results depend on the processing

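Alternatives were DESeq2 with its size factors, library size without TMM, no low-count filter, a minimum of 10 counts per library, the replicate number as a block, a fit of the compared groups alone (hairpin table) and leaving out each library in turn. The number of guidance genes called was 34 in OSCs (29 to 33 with a library left out), 5 with shPDK1#1 (3 to 6), 24 with shPDK1#2 (16 to 24) and 15 between the hairpins (10 to 15). Over all genes, the count with shPDK1#1 was 245 to 508 with a library left out. Calls held in every alternative that gave a value for 28 of 34, 3 of 5, 14 of 24 and 10 of 15 genes, and 0 called genes changed direction. The replicate numbers did not pair the libraries (correlations of same-numbered deviations from -0.0539 to 0.0948), and with the replicate block 34, 5, 23 and 15 guidance genes were called. Of the 3 libraries, 2, 1, 0 and 1 correlated best with their own number in these comparisons. SEMA6C with shPDK1#2 was the call lost with the block (adjusted p = 0.0575). Direction changed only for genes that were not called. Without TMM it did so for ROBO4 in OSCs (0.021) and, with shPDK1#1, for SEMA4F (-0.0069) and PLXNB1 (-0.010). PLXNB1 with shPDK1#1 also did with DESeq2 (-0.0034) and with only the compared groups (-0.0011). With a library left out, log2 fold changes lay on both sides of 0 in OSCs for ROBO4 (-0.34 to 0.18), SEMA7A (-0.0046 to 0.044) and UNC5A (-0.019 to 0.52). With shPDK1#1 they did for SEMA3C (-0.14 to 0.19), SEMA4C (-0.10 to 0.039), SEMA4D (-0.29 to 0.037), SEMA4F (-0.079 to 0.080), SEMA6D (-0.28 to 0.33), PLXNA1 (-0.081 to 0.019), PLXNA3 (-0.11 to 0.00022), PLXNB1 (-0.075 to 0.070) and ROBO1 (-0.020 to 0.050). With shPDK1#2 they did for SEMA3A (-0.028 to 0.11), SEMA3C (-0.21 to 0.12), SEMA3F (-0.059 to 0.47), SEMA4F (-0.038 to 0.12), PLXNB3 (-0.33 to 0.028) and PLXNC1 (-0.084 to 0.17), and between the hairpins for SEMA3A (-0.089 to 0.052), SEMA3D (-0.18 to 0.32), SEMA4C (-0.14 to 0.0042), SEMA4G (-0.18 to 0.010), PLXNB3 (-0.19 to 0.16) and ROBO3 (-0.098 to 0.011). The cause was not tested. SEMA3B in OSCs, at 3 to 29 counts per library, ranged from 0.98 to 2.11 with a library left out, and the part of depth in this was not tested.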
